A study of Mus musculus with 12 samples.

Results

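The comparison described here sets granulosa cells of Inha knockout mice, which make no inhibin alpha subunit, against granulosa cells of wild-type mice after priming with pregnant mare serum gonadotropin (PMSG) alone. Its members were chosen by the sample labels, 3 knockout and 3 wild-type arrays, which are 6 of the 12 arrays in the series. The other 6 arrays hold the same genotypes 6 h after human chorionic gonadotropin (hCG). They are not in the contrast, but they entered the shared estimate of the spread and the choice of the probe set on which a gene was read. All mice were 21 days old, of the mixed strain C57BL/6J;129S5/SvEvBrd, and had received 5 IU of PMSG 44 to 46 h before collection, controls included. Cells came from antral follicles opened by puncture, with no sorting step in the labels, and each RNA was hybridised to its own single-colour Affymetrix mouse array. The mutation is carried by the whole animal, so the pituitary, the theca and the oocyte of these mice lack the gene too, and the labels do not say how many mice gave each sample.

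Inhibins are dimers of the alpha subunit with an activin beta subunit. Granulosa cells of growing follicles secrete them, and they restrain pituitary secretion of follicle-stimulating hormone (FSH) and oppose activins at their receptors. PMSG acts like FSH: it drives antral follicles towards the preovulatory stage, in which granulosa cells make estradiol and acquire the machinery for progesterone synthesis. Mice without inhibin develop sex cord-stromal tumours of the gonads.

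The deposited values are on a log2 scale, with the median of every probe set across the 12 arrays set to 0. A value of 0 is therefore that median, a positive value lies above it, and no value is a level. Differences between genotypes are knockout minus wild type on the log2 scale with their standard error (SE). They were fitted with limma over 34945 probe sets, and a gene was called at a Benjamini-Hochberg adjusted p under 0.05. "Rose" and "fell" mean called higher and called lower in the knockout. Each gene was read on the most variable of its probe sets (by SD across the 12 arrays), a choice that favours probe sets that vary, so values of other probe sets are given for many of the genes described. Whether a gene lay above background in either genotype was not analysed here, so a fold change may understate the ratio of 2 levels.

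The targeted gene separated the genotypes on every array. Inha read 5.62, 5.62 and 5.87 in wild-type replicates 1, 2 and 3 and -7.38, -5.39 and -7.25 in the knockout replicates. It fell by 12.38 ± 0.43 (SE) on the log2 scale (adjusted p = 6.6e-06, limma). Knockout replicate 2 was the highest of the knockout arrays and still lay 11.02 below the lowest wild-type array. Of 21 measured genes of granulosa identity, 4 fell (Nr0b1, Bmp2, Wt1 and Nr5a1), 0 rose and 17 did not pass. Called were 19.05%, against 3.34% of all genes. Fitted on the 6 PMSG arrays alone, 2 of the 4 were called, Nr0b1 and Bmp2. These 4 genes appear again below beside other lists, which are not separate readings of them. The median of this list was 0.57, 0.67 and 0.58 on the wild-type arrays and -0.01, 0.08 and -0.10 on the knockout arrays. Since values are centred, the level of the markers themselves cannot be read, so the labelled cell type could be checked only as a difference between the groups. Foxl2, the transcription factor that maintains the granulosa fate, had a log2 difference of -1.87 (adjusted p = 0.55) with overlapping arrays, and the FSH receptor gene Fshr one of -0.65 (adjusted p = 0.39).

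Of 18193 genes, 310 rose (1.7%) and 298 fell (1.64%), together 3.34% of those tested. Of these, 221 rises and 234 falls were at least 2-fold. The share of 3.34% is the background for the counts of called list members given below. The median log2 difference of all genes was 0.04. The 3 knockout and the 3 wild-type arrays were fully separated in 3425 genes (18.8%), all 608 called genes among them. Knockout arrays were less alike than wild-type arrays: across probe sets, which are not independent replicates, r lay between 0.20 and 0.36 within the knockout and between 0.51 and 0.74 within wild type. The median SD over genes was 0.22 and 0.12. The counts depended on single arrays. Without wild-type replicate 1, 2 or 3 there were 188, 160 and 122 rises, and 177, 197 and 177 falls. Without knockout replicate 3, 222 genes rose and 185 fell. Of the 608 called genes, 218 were called whichever of the 6 arrays was left out, 97 of them higher and 121 lower. Fitted on the 6 PMSG arrays alone, 162 genes rose and 130 fell, and 227 of these 292 were among the 608. The genes given below as losing their call under an omission were not called on these 6 arrays either, except Myh11, Col3a1, Rarres2, Aldh1a1 and Pde9a. Further losses there are stated beside the gene. Of the 157 genes named by the rule, 82 were called under each of these omissions, and the losses are stated beside the genes described below or with the count of their list.

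**Figure D1:**
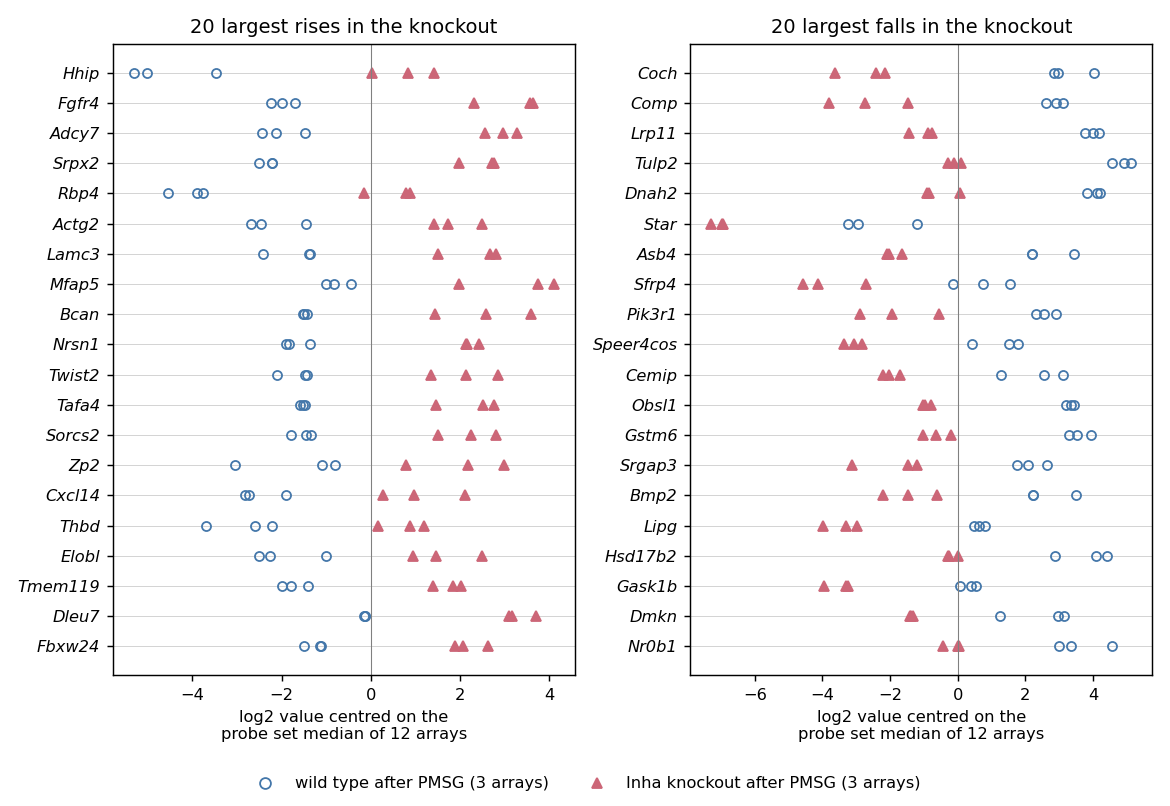
The 20 largest rises and the 20 largest falls among called genes, with the centred log2 value of each array on the x axis (open circles, 3 wild-type arrays; triangles, 3 knockout arrays). The groups do not overlap for any of these genes, as the rule that chose them required, and Hhip and Coch lead the panels with log2 differences of 5.37 and -6.01.

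The gene next to Inha on chromosome 1 also fell. Obsl1 encodes obscurin-like 1, a cytoskeletal adaptor protein. It is the immediate neighbour of Inha in the RefSeq gene order (assembly GRCm38.p6) and lies on the opposite strand. The promoter windows of both genes are printed here because Obsl1 changed on the same arrays as the deleted gene. Each runs 5′ to 3′ on its own strand, from 250 bases before to 50 bases after the annotated start, with the bases from the start on in capitals. The windows were taken from RefSeq, GRCm38.p6: Obsl1 at chr1:75506403-75506702, minus strand, and Inha at chr1:75507359-75507658, plus strand, 656 bases apart.
Obsl1: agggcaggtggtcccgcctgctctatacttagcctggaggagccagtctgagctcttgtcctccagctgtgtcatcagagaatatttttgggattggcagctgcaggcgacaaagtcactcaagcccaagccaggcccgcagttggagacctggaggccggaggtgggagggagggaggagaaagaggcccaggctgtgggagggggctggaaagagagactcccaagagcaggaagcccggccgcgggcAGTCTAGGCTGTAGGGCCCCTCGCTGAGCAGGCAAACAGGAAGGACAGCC
Inha: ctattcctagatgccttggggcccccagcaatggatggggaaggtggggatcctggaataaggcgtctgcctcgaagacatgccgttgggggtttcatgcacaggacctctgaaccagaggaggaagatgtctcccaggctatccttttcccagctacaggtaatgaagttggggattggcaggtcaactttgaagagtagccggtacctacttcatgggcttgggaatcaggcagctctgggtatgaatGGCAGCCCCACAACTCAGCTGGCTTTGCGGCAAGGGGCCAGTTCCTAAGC
The Inha window belongs to the start listed in the promoter table, and the table may not hold every start of the gene.

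Obsl1 read 3.34, 3.45 and 3.19 on the wild-type arrays and -0.78, -0.95 and -1.01 on the knockout arrays. The 3 arrays of each genotype lay close together, far from the other genotype. The gene fell by 4.24 ± 0.37 on the log2 scale, or 18.9-fold (adjusted p = 0.00108, limma). Of its 4 other probe sets, 2 fell as well, by 2.10 and 1.17, and the remaining 2 stood at -0.95 (adjusted p = 0.0537) and 0.16. On the other side of Inha, Stk11ip had a log2 difference of 0.13 (adjusted p = 0.86) with overlapping arrays. Among the 25 genes to each side, 28 were measured and 2 were called (7.14%, against 3.34% of all genes). These were Obsl1 and the predicted gene Gm2102, at place 22, which rose by 1.95 (adjusted p = 0.0321). Gm2102 was no longer called without wild-type replicate 2 or 3 or knockout replicate 1 or 3, with an adjusted p of up to 0.103, and its other probe set stood at 0.22. On the hCG arrays Obsl1 differed between the genotypes in the same direction (-2.52, adjusted p = 0.00273) and Gm2102 in the opposite direction (-2.12, adjusted p = 0.00786).

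**Figure D2:**
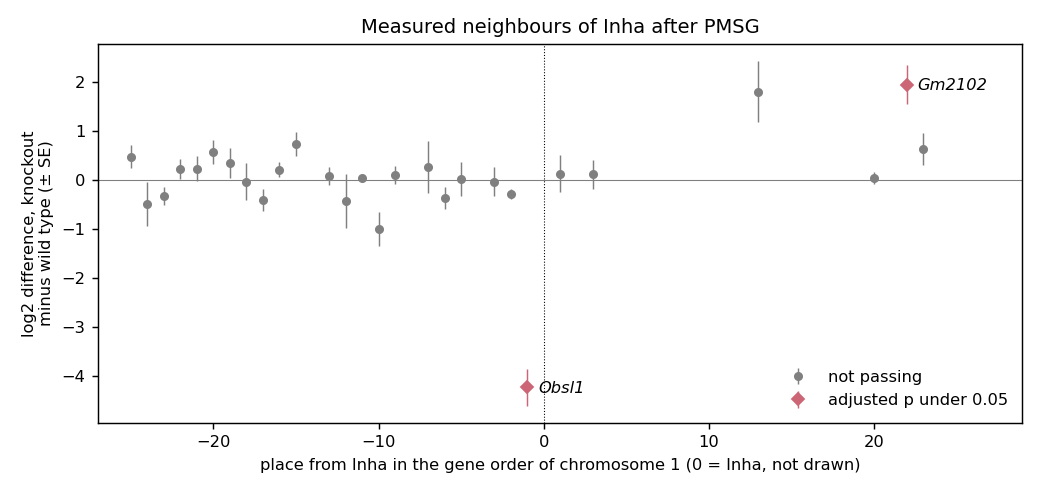
Log2 difference between knockout and wild type (y axis, ± SE, 3 arrays a group) of the 28 measured genes among the 25 on each side of Inha, placed by their order on chromosome 1 (x axis, 0 is Inha, which is not drawn). Obsl1, at place -1, stands at -4.24, and Gm2102 at place 22 is the other called gene.

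Genes of the hedgehog pathway were higher in the knockout. In this pathway a secreted ligand releases the membrane protein SMO from the receptor PTCH1, and GLI factors then switch on targets, among them Ptch1, Hhip and Gli1. In the follicle granulosa cells make the ligands and the surrounding theca and stroma respond. Of 15 measured genes 5 rose, 0 fell and 10 did not pass (33.3% called, against 3.34% of all genes). The median log2 difference was 0.97 against 0.04 for all genes. The list median lay between -0.20 and -0.10 on the wild-type arrays and between 0.30 and 0.47 on the knockout arrays.

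Of the ligands, none was called: Dhh had a log2 difference of 0.72 (adjusted p = 0.64), Ihh 0.97 (adjusted p = 0.70) and Shh 0.14 (adjusted p = 0.43). Among the membrane components, the coreceptor gene Boc read -2.29, -3.48 and -2.75 in wild type and 0.05, 0.30 and 0.54 in the knockout, and rose by 3.13 ± 0.32 (adjusted p = 0.00198). Of its other probe sets 1 rose too, by 2.15, and the remaining one stood at 0.04. The signal transducer gene Smo rose by 0.86 (adjusted p = 0.0452), a call lost under the omission of any array, with an adjusted p of up to 0.145, and its 2 other probe sets stood at 0.13 and 0.60. Ptch1, the ligand receptor and itself a target, stood at 1.13 (adjusted p = 0.50) with overlapping arrays.

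Hhip, the membrane protein that binds hedgehog ligands and limits their reach, showed the largest rise of all called genes. It read -5.01, -3.48 and -5.31 in wild type and 0.02, 0.85 and 1.43 in the knockout. Every knockout array lay above every wild-type array, and wild-type replicate 2 was the highest of its group. Hhip rose by 5.37 ± 0.63 on the log2 scale, or 41.3-fold (adjusted p = 0.00339). Its 3 other probe sets gave 3.70 to 4.75, and 2 of these were called. Its promoter window is shown because the window holds the letters TGACGTCA, a cAMP response element, in capitals, beginning 75 bases before the annotated start (RefSeq, GRCm38.p6, chr8:80057959-80058258, minus strand).
Hhip: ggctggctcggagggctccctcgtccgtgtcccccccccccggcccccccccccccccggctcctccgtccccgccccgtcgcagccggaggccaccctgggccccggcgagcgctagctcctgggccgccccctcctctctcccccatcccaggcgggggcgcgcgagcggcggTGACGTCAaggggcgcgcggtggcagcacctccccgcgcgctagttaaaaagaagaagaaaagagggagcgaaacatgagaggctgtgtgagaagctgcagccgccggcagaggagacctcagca
These letters read the same on both strands and occur in 1.79% of the 32851 promoter windows of 300 bases in the table. They were in 1.99% of the 302 windows of genes that rose and in 1.83% of the 328 windows of genes that fell, so the match describes this window alone.

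Of the GLI transcription factors, Gli3, which in its cleaved form represses targets, rose by 2.98 ± 0.22 (adjusted p = 0.000698), from -3.37, -2.49 and -2.73 in wild type to 0.16, -0.23 and 0.41 in the knockout. A second Gli3 probe set rose by 2.27 and the remaining one stood at 0.07. Gli2, the main activator, read -1.20, -0.97 and -1.79 in wild type and 1.66, 1.64 and 0.93 in the knockout. It rose by 2.73 ± 0.25 (adjusted p = 0.00132). Gli1, the target most used as a readout of the pathway, had a log2 difference of 2.51 that did not pass (adjusted p = 0.29): the groups did not overlap, but the knockout arrays spread from 0.51 to 3.87. Sufu, the inhibitor that holds GLI factors in the cytoplasm, stood at 1.12 (adjusted p = 0.052).

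**Figure D3:**
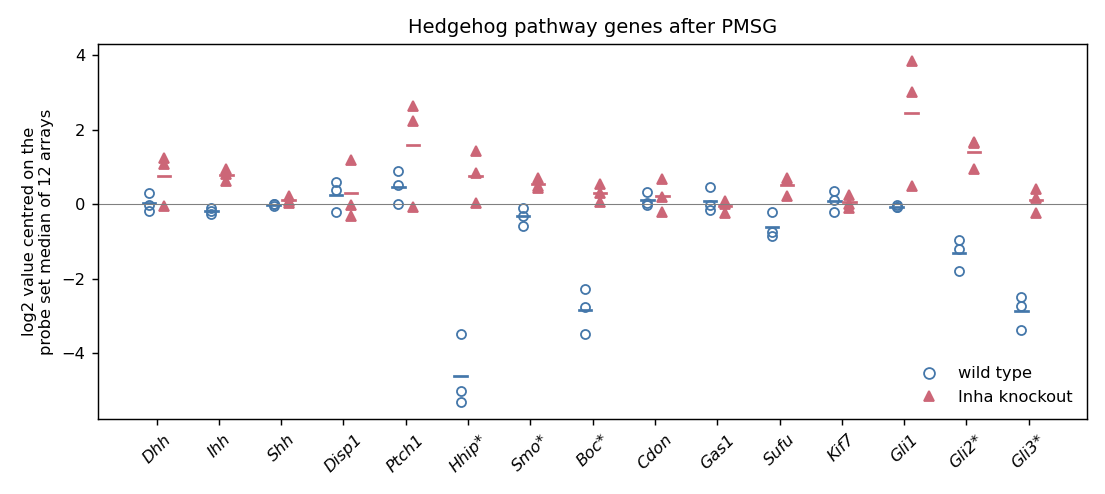
Centred log2 values (y axis) of the 15 measured hedgehog pathway genes on the 3 wild-type arrays (open circles) and the 3 knockout arrays (triangles), with group means as short lines and an asterisk on genes with an adjusted p under 0.05. Hhip, Boc, Gli2 and Gli3 show the widest called separation, while none of the ligand genes Dhh, Ihh and Shh carries an asterisk.

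Markers of theca and stroma, the cells outside the basement membrane, moved with genotype beside these genes. Gli1, Gli2 and Ptch1 are in both lists, so the lists are not separate readings. Of 19 measured markers 5 rose (Gli2, Myh11, Col1a2, Acta2 and Col3a1), Aldh1a1 fell and 13 did not pass. That is 31.6% called, against 3.34% of all genes. Acta2 and Col1a2 were not called on the 6 PMSG arrays alone (adjusted p = 0.0705 and 0.0628), and the 2 other probe sets of Acta2 stood at 0.03 and 0.10. The list median lay between -0.70 and -0.25 in wild type and between 0.43 and 1.64 in the knockout. The defining theca enzyme gene Cyp17a1, which makes androgen, had a log2 difference in the other direction, -2.94 (adjusted p = 0.051). The count of risen markers was 2, 1 and 1 without wild-type replicate 1, 2 and 3, and 7, 1 and 3 without knockout replicate 1, 2 and 3. Gli2 kept its call under each of these omissions, so where the count was 1 it was Gli2 alone. In RNA from many cells, more or fewer cells of a type and more or less RNA per cell cannot be told apart, and the part of theca and stroma cells in the hedgehog result was not tested.

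Further called rises were in single genes. Actg2, the smooth muscle gamma actin gene, read -1.46, -2.47 and -2.69 in wild type and 1.43, 1.74 and 2.49 in the knockout, and rose by 4.09 ± 0.58 (adjusted p = 0.00744). Twist2, a transcription factor of mesenchymal cells, rose by 3.78 ± 0.48, from between -2.11 and -1.42 to between 1.36 and 2.85. The laminin gene Lamc3 rose by 4.06 ± 0.53, with 4.05 on its other probe set. Srpx2, which encodes a secreted sushi-repeat protein, had the smallest adjusted p of the rises named here (0.000191): it read -2.21, -2.21 and -2.51 against 1.98, 2.76 and 2.71, a rise of 4.79 ± 0.27. Slit3, a secreted guidance ligand, rose by 2.53 ± 0.35. Myh11, the smooth muscle myosin gene, rose by 2.87, but was no longer called without wild-type replicate 2 or 3 or knockout replicate 2 (adjusted p up to 0.0553), and its other probe set stood at 0.06. The microfibril gene Mfap5 rose by 4.05 and by 4.70 without knockout replicate 1, and was no longer called without any of the other arrays (adjusted p up to 0.12).

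The machinery that starts steroid synthesis was lower. Of 17 measured genes of steroid synthesis and cholesterol supply 3 fell, 0 rose and 14 did not pass. Called were 17.65%, against 3.34% of all genes, and the median log2 difference was -0.45. Star, which carries cholesterol to the inner mitochondrial membrane, read -3.24, -2.95 and -1.21 in wild type and -6.99, -7.29 and -6.93 in the knockout. It fell by 4.60 ± 0.46, or 24.2-fold (adjusted p = 0.0018), and by 3.97 without wild-type replicate 3, the highest array. Its 2 other probe sets fell by 4.04 and 3.13. Cyp11a1, the enzyme that cleaves the cholesterol side chain, read 0.56, 0.89 and 1.31 against -1.99, -2.71 and -2.25, a fall of 3.23 ± 0.25 (adjusted p = 0.000698), while its 2 other probe sets stood at 0.02 and 0.16. Fdx1, the electron donor of that enzyme, fell by 2.35 ± 0.25 (adjusted p = 0.00231). Later steps did not pass: Hsd3b1, which completes progesterone, stood at -0.16, and Hsd17b1, which makes estradiol in granulosa cells, at 0.00, both with an adjusted p of at least 0.44.

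Of 20 measured regulators of steroid genes 2 fell, 1 rose and 17 did not pass. Nr0b1 encodes DAX1, an orphan receptor that represses steroidogenic factor 1. It read 4.57, 3.0 and 3.35 in wild type and -0.01, -0.43 and 0.02 in the knockout, and fell by 3.78 ± 0.60 (adjusted p = 0.012). Nr5a1, the gene of steroidogenic factor 1, fell by 1.47 (adjusted p = 0.0433). That call was lost under the omission of any array but knockout replicate 1 (adjusted p up to 0.134), and its other probe set stood at 0.14. Nr3c1, the glucocorticoid receptor gene, was the member that rose: -2.46, -2.58 and -2.45 in wild type against 0.59, 0.08 and 0.25, a rise of 2.80 ± 0.21 (adjusted p = 0.000698). Of its 5 other probe sets 2 rose too, and the range was 0.05 to 2.30. Hsd17b2, which inactivates estradiol and testosterone, fell by 3.98 ± 0.49, from 4.10, 2.89 and 4.41 to -0.26, -0.29 and 0.02.

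In the pathway of the missing subunit itself, 26 genes of inhibin and activin signalling were measured, Inha included. Of these 2 fell, 1 rose and 23 did not pass (11.5% called, against 3.34% of all genes). The falls were Inha, whose call came with the knockout, and Ltbp1, so part of this share was set by the design. The activin subunit genes Inhba and Inhbb stood at 0.34 (adjusted p = 0.73) and 0.28 (adjusted p = 0.86), the activin-binding follistatin gene Fst at -0.05 (adjusted p = 0.91), and the transducer gene Smad3 at -1.93 (adjusted p = 0.31). Ltbp1, which holds latent TGF-beta in the matrix, fell by 1.04 ± 0.15 (adjusted p = 0.00862, and 0.058 on the 6 PMSG arrays alone), though its 2 other probe sets lay between -0.21 and 0.03. Fstl1, a secreted follistatin-like protein gene, rose by 2.36 and by 2.43 on its other probe set, but was no longer called under the omission of any array but knockout replicate 1 (adjusted p up to 0.106). Of the 23 genes of BMP and AMH signalling 2 fell and 0 rose (8.7% called, against 3.34% of all genes). Bmp2 read 3.50, 2.21 and 2.22 in wild type and -1.47, -2.20 and -0.63 in the knockout, a fall of 4.08 ± 0.54 (adjusted p = 0.00596). Id1, a target of BMP signalling, fell by 1.69 ± 0.22 (adjusted p = 0.00533). Another regulator of the gonad, Wt1, fell by 2.62 ± 0.36 (adjusted p = 0.00658, and 0.066 on the 6 PMSG arrays alone).

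Signalling through cAMP, the second messenger of the FSH receptor, showed 4 rises and 1 fall among 28 measured genes. Called genes made up 17.9% of these, against 3.34% of all genes. Adcy7, an adenylyl cyclase gene, read -2.12, -1.46 and -2.43 in wild type and 2.56, 2.96 and 3.29 in the knockout. It rose by 4.94 ± 0.38, or 30.7-fold (adjusted p = 0.000698), and its 2 other probe sets rose by 3.59 and 4.54. A second cyclase gene, Adcy3, rose by 1.5 ± 0.15 (adjusted p = 0.002). Genes of phosphodiesterases, which break cAMP down, rose too: Pde3b by 2.46 ± 0.31 (adjusted p = 0.00443) and Pde4b by 1.61, the latter not called without knockout replicate 3 (adjusted p = 0.0543). Of the 5 other probe sets of Pde4b 1 was called, and they ranged from 0.05 to 1.69. Sgk1, a kinase gene induced by FSH, fell by 2.03 ± 0.31 (adjusted p = 0.00979, and 0.0531 on the 6 PMSG arrays alone). In the whole families, 2 of 10 adenylyl cyclases and 3 of 25 phosphodiesterases rose and 0 fell. Pde9a, the other phosphodiesterase gene that rose, was not called without wild-type replicate 1 or 3 (limma, adjusted p up to 0.0532).

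Among growth factor receptors, Fgfr4 rose most. This FGF receptor gene read -2.24, -1.98 and -1.69 in wild type and 3.58, 3.64 and 2.33 in the knockout, a rise of 5.15 ± 0.41, or 35.5-fold (adjusted p = 0.000698). None of its 4 other probe sets was called, and they ranged from 0.10 to 2.07. Egfr, the receptor of the EGF-like factors of ovulation, rose by 1.91 ± 0.26 (adjusted p = 0.00613), with 1 of 6 other probe sets called. Of the 25 genes of this list 3 rose and 1 fell (16% called, against 3.34% of all genes). Fgfr1 rose by 1.15, but not without wild-type replicate 2 or 3 or knockout replicate 2 or 3 (adjusted p up to 0.147), and its other probe sets stood at 0.03 and 1.35. Dusp6, a phosphatase gene of the ERK pathway, fell by 2.48, a call lost under the omission of any array but knockout replicate 1 (adjusted p up to 0.102).

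The insulin and IGF system, which sensitises granulosa cells to FSH, had 2 rises and 3 falls among 20 genes (25%, against 3.34% of all genes). Igfbp4, a binding protein gene, rose on all 6 of its probe sets, by 1.81 ± 0.25 on the one read here and by 1.91 to 2.28 on the others. Igfbp1 rose by 2.25 ± 0.33, from -0.10, -0.16 and -0.05 to 2.05, 2.36 and 2.02. Igfbp5 fell by 2.77, and by 2.15 without knockout replicate 1. It was not called without wild-type replicate 1, 2 or 3 or knockout replicate 2 (adjusted p up to 0.099). Grb14, an adaptor that inhibits the insulin receptor, fell by 2.06 ± 0.25 (adjusted p = 0.00359). The insulin receptor gene Insr fell by 0.89, but not without wild-type replicate 1 or 3 (adjusted p up to 0.0757), and its 2 other probe sets stood at 0.02. Downstream, Pik3r1, the regulatory subunit gene of PI3-kinase, read 2.55, 2.90 and 2.33 against -1.95, -0.56 and -2.88. It fell by 4.39 ± 0.48 (adjusted p = 0.0025), and by 5.01 without knockout replicate 2. Its 3 other probe sets ranged from -3.11 to -1.61, and 2 of them were called.

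Retinoid handling changed in both directions: 3 of 23 genes rose and 2 fell (21.7% called, against 3.34% of all genes). Rbp4, the carrier protein of retinol, read -3.90, -3.77 and -4.55 in wild type and -0.14, 0.79 and 0.89 in the knockout, a rise of 4.58 ± 0.40 (adjusted p = 0.00102). Cyp26b1, which degrades retinoic acid, rose by 1.27 ± 0.11 (adjusted p = 0.000791). Rarres2, the chemerin gene, rose by 1.86, but was not called without wild-type replicate 2 (adjusted p = 0.0529), and its other probe sets stood at 0.45 and 1.68. The retinoic acid synthases fell: Aldh1a2 by 2.42 ± 0.34 (adjusted p = 0.00763, and 0.0667 on the 6 PMSG arrays alone) and Aldh1a1 by 2.35, the latter not called under the omission of any array but knockout replicate 1 (adjusted p up to 0.0746). With Aldh1b1 (-1.22 ± 0.15), 3 of 20 aldehyde dehydrogenase genes fell and 0 rose. Of 18 genes of glutathione S-transferases, enzymes of detoxification, 4 fell and 0 rose (22.2% called, against 3.34% of all genes). Of these Gstt2 kept its call under no omission (limma, adjusted p up to 0.128). Gstm7 was not called on the 6 PMSG arrays alone (limma, adjusted p = 0.0682), and its other probe set stood at 0.03. Gstm6 fell by 4.21 ± 0.58, from 3.93, 3.29 and 3.53 to -0.20, -1.04 and -0.63.

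Beside Inha, the largest falls lay in 2 matrix genes. Coch, the gene of the matrix protein cochlin, read 4.03, 2.84 and 2.97 in wild type and -2.15, -3.62 and -2.43 in the knockout. It fell by 6.01 ± 0.61, or 64.7-fold (adjusted p = 0.00196). Comp, the gene of cartilage oligomeric matrix protein, fell by 5.55 ± 0.50 (adjusted p = 0.00132), from 3.12, 2.89 and 2.61 to -1.48, -3.81 and -2.74, and stood at -6.15 without knockout replicate 1. Both are in a list of 45 cartilage-type matrix genes and proteoglycans in which 5 rose and 2 fell (15.6%, against 3.34% of all genes). Bcan, the proteoglycan gene brevican, rose by 4.02 ± 0.42 and Srpx2 as given above. The other rises of the list were not stable. With Bcan and Srpx2 counted, 3, 2, 2 and 2 genes of the list rose without wild-type replicate 2 or 3 or knockout replicate 2 or 3. Bcan and Srpx2 kept their calls under each omission, so where the count was 2 it was these genes alone. Cemip, a hyaluronan-degrading protein gene, fell by 4.32 ± 0.57 (adjusted p = 0.00591), though its 2 other probe sets lay between -0.06 and 0.12. The basement membrane collagen gene Col4a6 fell by 2.73, and by 2.14 without wild-type replicate 1, and its neighbour Col4a5 fell by 1.88. Col6a1 rose by 1.42 ± 0.22. These 3 collagen genes were not called on the 6 PMSG arrays alone (adjusted p = 0.0945, 0.0691 and 0.0868).

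Other large falls were in genes of varied function. Lrp11, a membrane protein gene of the LDL receptor family, read 4.19, 3.76 and 4.0 against -0.75, -1.44 and -0.89 and fell by 5.01 ± 0.57 (adjusted p = 0.00275). Tulp2, a tubby-like protein gene, fell by 4.96 ± 0.69. Dnah2, the gene of a dynein of cilia, fell by 4.60 ± 0.67, with 0.05 on its other probe set. Asb4, a substrate receptor gene of a ubiquitin ligase, fell by 4.54 ± 0.63 and Sfrp4, the gene of a secreted WNT inhibitor, fell by 4.53 ± 0.69 (adjusted p = 0.0102, and 0.0512 on the 6 PMSG arrays alone). The lipase gene Lipg fell by 4.07 ± 0.55, with -4.05 and -0.11 on its other probe sets. Dmkn, a secreted epithelial protein gene, fell by 3.83 ± 0.46 and by 4.43 without wild-type replicate 2.

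Genes of early response to stimuli tended to lower values, with few calls. Of 34 AP-1 and immediate early genes 3 fell, 0 rose and 31 did not pass, with a median log2 difference of -0.96. Myc fell by 1.88 ± 0.28 (adjusted p = 0.00922, and 0.0673 on the 6 PMSG arrays alone) and Ccn2, a matricellular target of YAP and TGF-beta, by 3.04 ± 0.49 (adjusted p = 0.0137). Ccn1, a relative of Ccn2, fell by 3.70, and by 2.87 without wild-type replicate 1. It was not called without knockout replicate 2 or 3 (adjusted p up to 0.0672). The list median was 0.83, -0.26 and -0.41 on the wild-type arrays and -0.40, -1.30 and -1.76 on the knockout arrays, so that the highest knockout array overlapped wild type. Without knockout replicate 1 the count of falls was 8, and without knockout replicate 3 it was 2. Fos and Jun stood at -2.13 (adjusted p = 0.33) and -1.93 (adjusted p = 0.36), both with overlapping arrays.

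Cell cycle genes lay higher in the knockout by small amounts. Of 45 genes 43 had a positive log2 difference, against 11807 of all 18193 genes. In 28 of the 45 the groups did not overlap, against 18.8% of all genes. Only 4 were called, all higher (8.89%, against 3.34% of all genes). The median log2 difference was 0.64. Fen1, the nuclease of Okazaki fragments, rose by 0.80 ± 0.08 (adjusted p = 0.002) and was called under each omission. Ccne1, cyclin E, rose by 1.21, and the replication genes Gins2 and Rfc4 by 1.06 and 0.91, but each of these calls was lost in at least 3 of the 6 omissions. The count of rises was 2, 2 and 1 without wild-type replicate 1, 2 and 3, and 1 without knockout replicate 3. The list median ranged from -0.44 to 0.00 in wild type and from 0.33 to 0.56 in the knockout. Of 16 cell cycle inhibitor genes 0 were called by limma, with an unadjusted p under 0.05 in 3.

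Markers of other cells that follicle puncture can bring along were as follows. Of 17 oocyte markers Zp2, an egg-coat gene, and Gdf9, an oocyte growth factor gene, rose, by 3.65 and 3.19, 0 fell and 15 did not pass. The list median ranged from -0.47 to -0.16 in wild type and from 0.50 to 2.02 in the knockout. Zp2 stood at 2.95 without wild-type replicate 3. It kept its call only without knockout replicate 1, and Gdf9 in no omission (adjusted p up to 0.136). Of 11 surface epithelium markers 5 fell (Igfbp5, Upk3b, Krt8, Krt18 and Krt19) and 0 rose, but 1 and 0 fell without wild-type replicates 1 and 3, and 3 without knockout replicate 2 or 3. None of the 5 was called on the 6 PMSG arrays alone (limma, adjusted p from 0.0569 to 0.119). The list median ranged from -0.04 to 0.58 in wild type and from -0.86 to -0.31 in the knockout. Of 17 leukocyte and 7 red blood cell markers 0 were called by limma, with an unadjusted p under 0.05 in 2 and 0, and of 14 endothelial markers Esam fell (no longer called in 5 of 6 omissions). The part of these cells in the results above was not tested.

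**Figure D4:**
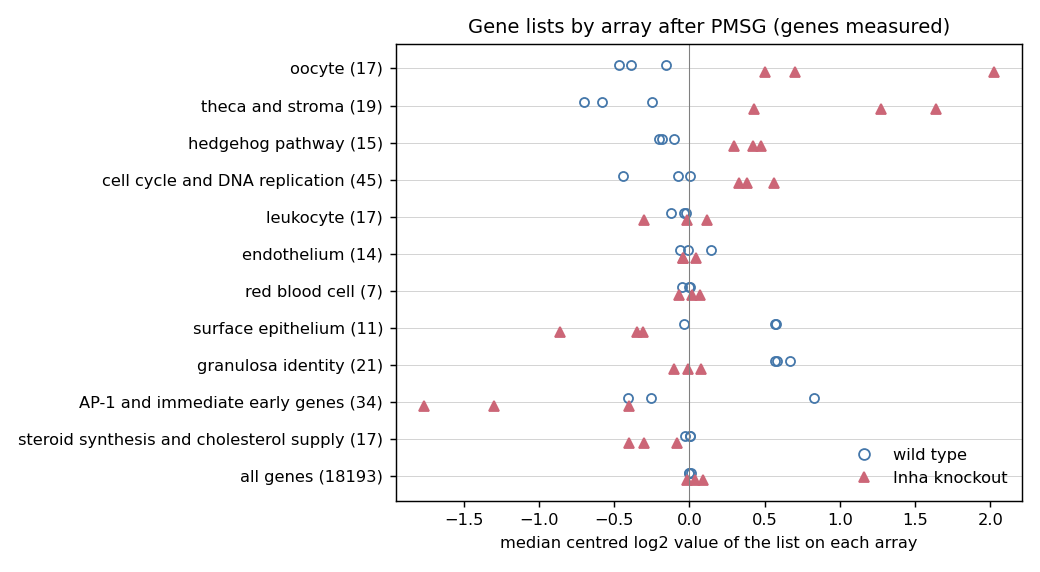
Median centred log2 value of each gene list (rows, with the number of genes measured) on the 3 wild-type arrays (open circles) and the 3 knockout arrays (triangles) after PMSG. The oocyte, theca and stroma, hedgehog and cell cycle lists lie higher on the knockout arrays, the surface epithelium, granulosa identity and steroid lists lower, and the medians of all genes stay between -0.01 and 0.09.

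Gene families were counted by symbol, beside the 3.34% called among all genes. Of 36 Hox genes, which set position along the body axis, 3 rose and 0 fell (8.33%), with a median log2 difference of 0.08. Positive differences were common there (34 of 36), as they were in families without a call (37 of 40 serpins and 37 of 39 olfactory receptors). Among all 18193 genes 11807 were positive. Hoxd10 rose by 2.83 ± 0.44 (not called on the 6 PMSG arrays alone, adjusted p = 0.0504), Hoxd8 by 2.31 ± 0.26 and Hoxc8 by 1.92 ± 0.28. Of 347 solute carrier genes 9 rose and 2 fell, 3.17% called, near the share of all genes. Slc38a4, an amino acid transporter gene, rose by 2.40 ± 0.27. Slc6a15 and Slc9a3 of the same family rose too, but each lost its call in 5 of the 6 omissions. The serpins (40), FOX factors (40), SOX factors (21), tubulins (20), claudins (26), MHC genes (23) and genes of mitochondrial complex I (44) held 0 calls by limma. In each of these families between 2 and 11 genes had groups that did not overlap, and between 3 and 7 an unadjusted p under 0.05 (limma). Of all 18193 genes, the groups did not overlap in 18.8%, and 2801 had an unadjusted p under 0.05. Of 336 zinc finger genes 1 fell, Zfp608, by 2.41 ± 0.35.

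Of the 608 called genes, 274 have 1 probe set and 334 have several. A second probe set was called in the same direction in 132 of the 334 and in the opposite direction in 0. For the rest no second probe set was called. Over all 34945 probe sets 504 rose and 558 fell (3.04%).

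Replicate 1 of both genotypes carries the same number in its array name, and so does replicate 2 of both. The labels do not say what these numbers stand for. Within these pairs Inha differed by -13.0 and -11.0, Hhip by 5.04 and 4.32, Coch by -6.18 and -6.46, Star by -3.74 and -4.33 and Obsl1 by -4.12 and -4.40. The groups did not overlap for these genes, so any pairing of arrays had to give the direction of the fit, and only the sizes are informative. The mean of the 3 control probe sets of 18S RNA was alike within these pairs, -2.21 and -2.38 in the first and 2.39 and 2.18 in the second, against 0.83 and -0.79 on the replicate 3 arrays, which share no number. With this number as a random block (consensus correlation 0.573) 728 genes rose and 702 fell.

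The genotype difference after hCG is a reading of the same probe sets on 6 other arrays, after a stimulus like the ovulatory surge of luteinizing hormone. These arrays share the spread estimate and the choice of probe sets with the comparison after PMSG, so the reading is not fully independent of the calls. In that comparison 7.79% of all genes were called higher in the knockout and 5.47% lower, 13.3% in all. Of the 310 genes that rose after PMSG, 221 (71.3%) were called higher after hCG and 5 lower. Of the 298 that fell after PMSG, 145 (48.7%) were called lower after hCG and 2 higher. The median log2 difference of the 310 was 1.41 after PMSG and 1.27 after hCG, and that of the 298 was -1.61 and -0.97. The first of each pair of values is set in part by the choice of the genes, since they were called after PMSG. The genes called both times were fewer without single wild-type arrays: 366 in all, but 224 of 365, 210 of 357 and 177 of 299 genes called after PMSG without wild-type replicates 1, 2 and 3, so that the counts fell with the number called after PMSG.

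Many of the rises described above were also called after hCG, and the genes given here are examples. The log2 difference was then 5.04 for Srpx2 (limma, adjusted p = 2.3e-05), 4.47 for Fgfr4, 3.47 for Adcy7 and 4.48 for Actg2. It was 2.52 for Gli2, 2.53 for Boc, 4.38 for Twist2, 4.18 for Lamc3 and 4.65 for Bcan. The falls of Coch (-4.26), Comp (-3.30), Star (-2.96) and Cyp11a1 (-2.29) were called after hCG too. The falls of Nr0b1 (-1.23, adjusted p = 0.27), Hsd17b2 (-1.36, adjusted p = 0.12), Tulp2 (-1.65, adjusted p = 0.18) and Dnah2 (-1.16, adjusted p = 0.38) were not. For these 4 genes the test of the difference between the 2 comparisons (the interaction of genotype and hCG) did not pass either.

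The interaction passed for 34 of the 608 genes, against 1.08% of all genes tested, and in 29 of the 34 the interaction ran against the difference after PMSG. Hhip went from 5.37 after PMSG to 0.40 after hCG (interaction adjusted p = 0.0416) and Gli3 from 2.98 to 0.48 (interaction adjusted p = 0.00869). Rbp4 went from 4.58 to 1.14 (interaction adjusted p = 0.0291) and Nr3c1 from 2.80 to 0.81 (interaction adjusted p = 0.0192). Cyp26b1 had 1.27 after PMSG and 0.15 after hCG (interaction adjusted p = 0.0104). Of the falls, Gask1b, a Golgi kinase gene, went from -3.83 to -1.41 (interaction adjusted p = 0.0223). In other genes the sign changed. Cxcr4 went from 0.96 to -2.31 (interaction adjusted p = 0.000867) and Fzd1 from 1.12 to -2.43 (interaction adjusted p = 0.00212). Gm2102 went from 1.95 to -2.12 (interaction adjusted p = 0.0126). The call after PMSG was lost without any wild-type array for Cxcr4, and under every omission for Fzd1. The interaction of these genes was not run with arrays left out. Since the genes were called after PMSG, a smaller value after hCG is in part built into the choice. Leaving out each of the 12 arrays in turn, an alternative chosen after seeing the data, kept the call of the interaction under all 12 omissions for Gli3 and Cyp26b1 (adjusted p up to 0.0305 and 0.0368). For Hhip it was kept only without replicate 2 of wild type after PMSG or after hCG, and lost in the other 10 omissions (adjusted p up to 0.0994, interaction between -5.53 and -4.42). For Rbp4 it was lost without any of the wild-type arrays after PMSG, knockout replicate 2 or 3 after PMSG, or replicate 3 of either genotype after hCG (adjusted p up to 0.0775). For Nr3c1 and Gask1b it was lost without wild-type replicate 2 or 3 after PMSG or knockout replicate 3 after hCG (adjusted p up to 0.0606 and 0.07).

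**Figure D5:**
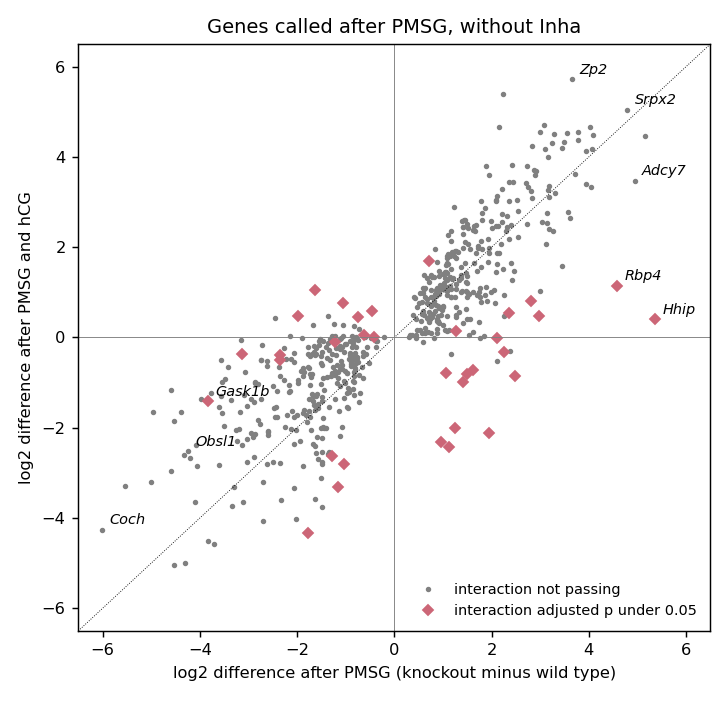
Log2 difference between knockout and wild type after PMSG (x axis) and after PMSG and hCG (y axis) for the 607 genes called after PMSG other than Inha, with 3 arrays in each of the 4 groups. Points near the dotted line have equal differences, and the diamonds mark genes whose interaction has an adjusted p under 0.05, among them Hhip (5.37 and 0.40) and Rbp4 (4.58 and 1.14).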

How the data were processed

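Granulosa cell RNA of 12 samples was measured on single-colour Affymetrix arrays, and samples were put in 4 groups of 3 by title and characteristics. The deposited values are log2 expression values after GCRMA, per the submitters' processing notes, with the version not given in the sources used here. They are centred on each probe set's median over the 12 arrays, which was found from the values. No levels, raw scans or detection calls were used, and no scaling was added. The number of arrays limits the precision.

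Of 45101 probe sets, 64 controls, 932 naming several genes and 9160 naming none were left out. The remaining 34945 name 18193 genes, with symbols updated through gene IDs to RefSeq for 34741 of them. A group-means model was fitted to all 12 arrays with limma 3.58.1 in R 4.3.3 (8 residual degrees of freedom), without a filter, with Benjamini-Hochberg adjustment of the p-values across the 34945 probe sets. The series calls the 3 samples of a group independent, and does not say whether each came from 1 animal or a pool.

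The comparison, the 33 gene lists and the 42 symbol families were chosen with earlier results of these data known. Of 752 list symbols 704 were measured, and the family of histones had 0. Named were Inha, the 20 largest called rises and falls of at least 2-fold with no overlap (clones left out), called members of lists and families (up to 8 each), pathway members needed to describe a list, and called genes among the 25 to each side of Inha. List members are given by counts and medians with no test of the list. On simulated data with 34945 probe sets, 54% of 100 changes of log2 1 and 83% of 100 changes of log2 2 were called. There were 8 false calls. These figures describe the simulated data alone. The real PMSG arrays had unequal spread, with a median SD over genes of 0.22 for knockout arrays and 0.12 for wild-type arrays. Values also correlated within array name number (consensus correlation 0.573). The share of changes found and the false calls may therefore differ on the real arrays. Promoter windows are those of RefSeq, GRCm38.p6. Alternatives tried were other probe set rules, filters, normalizations, variance models, blocks and omitted arrays.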

Additional observations from a re-analysis of the deposited data

Results flagged for a closer look

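For 3 of the genes with the largest changes the genotype difference itself differed between PMSG alone and PMSG with hCG, by the interaction term of the limma model. For Hhip the difference was lower by 4.96 on the log2 scale after hCG (interaction value -4.96, adjusted p = 0.0416, from 5.37 to 0.40). For Rbp4 the interaction was -3.44 (adjusted p = 0.0291, from 4.58 to 1.14). For Gask1b it was 2.42 (adjusted p = 0.0223, from -3.83 to -1.41). When each of the 12 arrays was left out in turn, the interaction kept its direction and was called in 2 omissions for Hhip, 5 for Rbp4 and 9 for Gask1b. These genes were chosen for large values after PMSG, which favours a smaller value on other arrays. What underlies the differences was not tested.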

How the results depend on the processing

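No named gene changed direction under any alternative run. The counts did move. The arrays with early serial numbers are the PMSG arrays other than knockout replicate 3, and replicate 1 of each genotype after hCG. Against 310 rises and 298 falls, there were 162 and 130 with the 6 PMSG arrays alone, 57 and 30 with early serial numbers only, 728 and 702 with the array name number as a random block, 3086 and 1776 with array weights (0.125 to 7.64), and 17 and 21 tested against a log2 change of 1. Omitting a single array gave 122 to 368 rises and 177 to 427 falls. Called neighbours of Inha, 2 as reported, were 1 with 6 arrays, 4 with probe set means, 5 with the random block, 1 with early serial numbers, 9 with array weights, 1 against a log2 change of 1 and 1 to 2 with an array omitted. Genes called after PMSG and the same way after hCG, 366, were 46 with early serial numbers, 1903 with array weights, 20 against a log2 change of 1 and 177 to 452 with an array omitted. The causes were not tested.

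Deviations from the group means correlated at 0.19, 0.29 and 0.09 between the 2 genotypes for replicates 1, 2 and 3. Between unlike replicate numbers r lay between -0.22 and 0.04, so each array correlated best with its own number. The 3 deviations of a group sum to 0, so these correlations are not separate readings. The value for replicate 3 depends on those of replicates 1 and 2. The pairs of replicates 1 and 2 also share a number in the array names, and that of replicate 3 does not. The model used for the calls left this pairing out. With the replicate block on 12 arrays 148 genes rose and 170 fell, and 214 were called the same way after hCG. With the replicate block on the 6 PMSG arrays (2 residual degrees of freedom) 0 rose, 0 fell, 0 neighbours were called and Inha, at -12.38, did not pass, with 2793 genes at an unadjusted p under 0.05. Of 156 named genes besides Inha, 19 were called with early serial numbers only, 25 against a log2 change of 1, 78 with the 6 PMSG arrays alone, 86 with the replicate block on 12 arrays, 144 after quantile normalization and 129 after median centring.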
